A study of Mus musculus with 4 samples.

Results

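The ligands of the tumour necrosis factor (TNF) superfamily are the 10 genes Tnf, Lta, Ltb, Fasl, Tnfsf10, Tnfsf11, Tnfsf14, Tnfsf8, Tnfsf9 and Cd70, chosen by gene symbol among the 36346 gene IDs of the libraries that have a symbol. All 10 were measured and all 10 passed the filter on low values. They were followed in CD8+ T cells enriched from percutaneous tumour grafts of wild-type male C57BL/6 mice. The mice received an antibody against SIGLEC15, a sialic acid-binding lectin studied as an immune checkpoint molecule, or control IgG, by intraperitoneal injection over 2 weeks, and grafts were collected on day 19. Each treatment had 6 mice, and each library mixed 3 cell pellets, so there were 2 anti-SIGLEC15 libraries and 2 IgG libraries. The age of the mice, the dose of antibody and the line of the graft are not given in the labels. The comparison asks how the T cells in the tumour differ when SIGLEC15 is blocked.

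TNF superfamily ligands are mostly membrane proteins that assemble as trimers and cluster receptors of the TNF receptor superfamily on a neighbouring cell. Some of those receptors, such as Fas and the TRAIL receptor, carry a death domain and can start apoptosis. Others, such as 4-1BB and CD27, act through TRAF adaptors and NF-kB as costimulatory receptors. Activated CD8+ T cells are a known source of TNF, lymphotoxins, FasL, TRAIL and LIGHT, and antigen-presenting cells are a known source of 4-1BB ligand and CD70.

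The libraries differed in how much of their RNA came from T cells, and every result below has to be read with this. Levels are given in RPKM, reads per kilobase of exon scaled to the counted reads of the library, with 14854802 to 16026197 reads counted per library. The geometric mean of 18 T cell identity genes was 67.3 and 71.6 RPKM in the anti-SIGLEC15 libraries, against 23.6 RPKM in IgG replicate 1 and 71.9 RPKM in IgG replicate 2. Of the genes that define the labelled cells, Cd8a, a chain of the CD8 coreceptor, was at 290 and 315 RPKM in the anti-SIGLEC15 libraries against 115 and 351 RPKM in the IgG libraries, and Cd4 was at no more than 6.83 RPKM in any library. Genes of hepatocytes and of epithelial cells were also present: Alb had 1089 and 625 RPKM in the anti-SIGLEC15 libraries, against 2795 and 556 RPKM in the IgG libraries. Red cell genes (Hba-a1, Hbb-bs and Alas2) separated the treatments, summing to 94.0 and 15.7 RPKM in the anti-SIGLEC15 libraries against 608 and 1633 RPKM in the IgG libraries. Of the 4 NK cell genes, Eomes, which CD8+ T cells also express, had 21.8 and 18.2 RPKM, against 5.11 and 22.6 RPKM with IgG. The other NK cell genes did not exceed 0.732 RPKM, and of these Klrb1c and Klra8 lay higher in both anti-SIGLEC15 libraries. The 3 endothelial and 4 fibroblast genes summed to no more than 2.77 RPKM a list in any library. The part of these cells in the ligand levels was not tested. In bulk RNA of this kind, fewer cells of a type and less RNA per cell cannot be told apart. Each library is a pool, so p-values here rest on how far pools, not single mice, differed.

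Every ligand had a positive log2 fold change, though the ratio of means of Tnfsf11 was 0.921, and none passed the test. In limma on log2(RPKM + 1), 0 of 10 ligands and 0 of 12484 tested genes (0%) had a Benjamini-Hochberg adjusted p at or under 0.05. The median log2 fold change of the ligands was 0.54, beside 0.02 over all tested genes. All 10 fold changes were above 0, where 52.5% of all tested genes were. The direction was not particular to the ligands: 18 of the 18 T cell identity genes were above 0, with a median of 0.75. In 5 of the 10, namely Lta, Ltb, Fasl, Tnfsf14 and Tnfsf8, both anti-SIGLEC15 libraries lay above both IgG libraries, a position held by 12.1% of all tested genes. In 0 of 10 did both lie below, a position held by 6.02% of all tested genes. A single member, Tnfsf14, had an unadjusted p under 0.05, as did 146 (1.17%) of all tested genes, and limma-voom on the recovered reads also called 0 genes. With 2 libraries against 2, an exact two-sided permutation test of a single gene cannot give a p under 0.333.

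The count of 5 rests on narrow margins for some members and depends on single libraries. The lower anti-SIGLEC15 library of Fasl stood 0.194 RPKM above the higher IgG library, that of Tnfsf8 0.0114 RPKM and that of Lta 1.12 RPKM, and in these 3 genes the 95% exact Poisson intervals of the reads overlapped, so the gap was not detectable at this depth. For Ltb (15.2035 RPKM) and Tnfsf14 (3.06 RPKM) the intervals did not overlap, but these intervals cover counting error only. With upper-quartile scaling of the libraries Tnfsf14 kept its separation and Ltb did not. With scaling to T cell identity genes neither kept it. Without IgG replicate 2, 9 ligands had both anti-SIGLEC15 libraries above the remaining IgG library and 0 lay below, where 44.8% and 37.1% of tested genes did. Without IgG replicate 1, 6 ligands lay above and 2 below, where 25.5% and 26.8% of tested genes did. Without anti-SIGLEC15 replicate 1 the counts were 8 above and 0 below, where 19.4% and 37.7% of tested genes lay. Without anti-SIGLEC15 replicate 2 they were 5 and 0, where 36.8% and 8.35% of tested genes lay. By limma with Benjamini-Hochberg adjustment, 5 ligands were called higher without IgG replicate 2, as were 8.52% of tested genes, and 1, Tnf, without IgG replicate 1, as were 0.76% of tested genes. IgG replicate 1, the library poorest in T cell transcripts, was the lowest library for 9 of the 10 ligands. It was also the lowest for 18 of the 18 T cell identity genes, and for 43.4% of all tested genes. It was the highest for 0 of the 10, and for 34% of all tested genes. Tnf was the exception, lowest in IgG replicate 2 as were 15.9% of all tested genes.

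**Figure D1:**
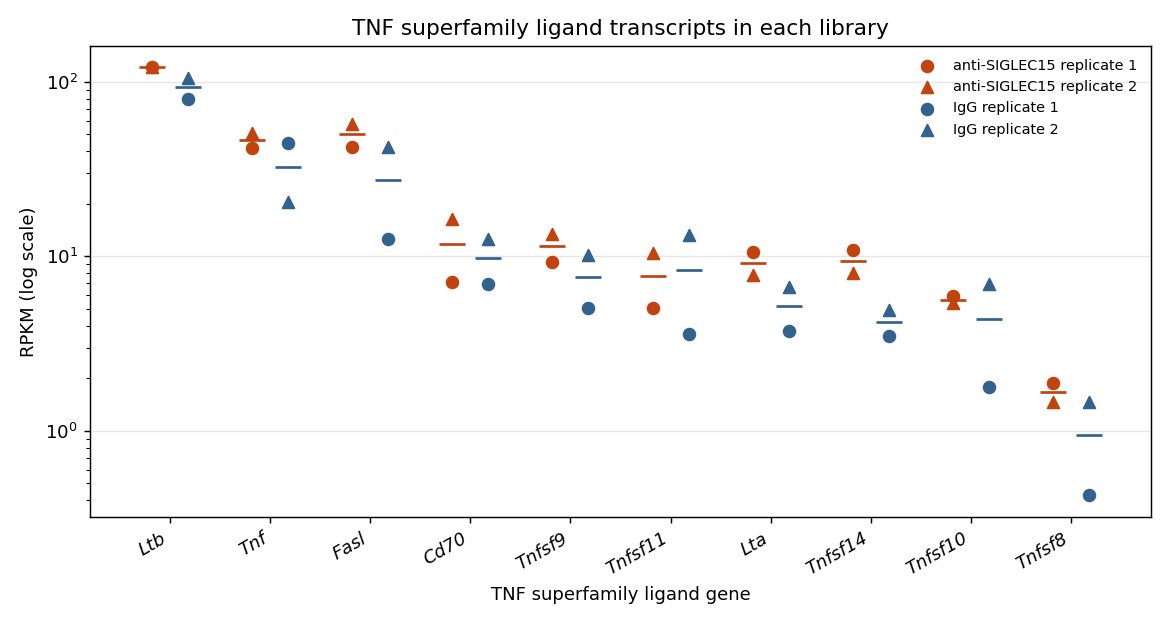
Level of each ligand gene in RPKM (log axis), with genes ordered by their mean over all 4 libraries. Each point is a library, anti-SIGLEC15 in orange and IgG in blue, and bars are the means of 2 libraries. Ltb lies apart at the top, Tnfsf8 is the lowest gene within each library, and the blue circles (IgG replicate 1) are the lowest point of every gene but Tnf.

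Ordered by level per length, the family had a clear top and bottom and a crowded middle. Ltb was the most abundant ligand in each library, between 80.1 and 121 RPKM, with no overlap with the next gene. Tnf and Fasl followed at means of 39.3 and 38.7 RPKM over the 4 libraries, and their ranges overlapped. Cd70, Tnfsf9, Tnfsf11, Lta, Tnfsf14 and Tnfsf10 had means between 5.02 and 10.8 RPKM, and the range of each overlapped that of its neighbour in the order. Tnfsf8 was last in each library, with a mean of 1.31 RPKM, though its highest library (1.89 RPKM) exceeded the lowest of Tnfsf10 (1.79 RPKM). The summed level of the 10 ligands was 256 and 292 RPKM in the anti-SIGLEC15 libraries, against 162 and 224 RPKM in the IgG libraries, and Ltb made up between 41.4% and 49.4% of it. Among tested genes Ltb lay at percentile 94.6 or above in every library, whereas Tnfsf8 lay at percentile 15.9 and 16.1 in the anti-SIGLEC15 libraries and at 2.73 and 14.2 in the IgG libraries.

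Ltb, Tnf and Lta lie next to each other in the class III region of the major histocompatibility complex on chromosome 17, within 10913 bases of GRCm38. Ltb is on the plus strand (35194439 to 35196320), and Tnf (35199381 to 35202007) and Lta (35203165 to 35205351) are on the minus strand. Between Ltb and Tnf lie 3060 bases, and between Tnf and Lta 1157 bases. Tnfsf9 (57105325 to 57107757, plus strand), Cd70 (57145997 to 57149777, minus strand) and Tnfsf14 (57189492 to 57194177, minus strand) form a further cluster on the same chromosome, over 88853 bases. Promoter windows are shown for the 3 neighbours of the TNF locus, of which Lta and Ltb had the same order over the libraries and Tnf another, and for Tnfsf14, which had the largest ratio of means. Each window runs from 250 bases before to 50 after the RefSeq start (GRCm38.p6), 5′ to 3′ on the strand of the gene, with matches to the searched motifs in capitals. The windows are chr17:35201958-35202257 for Tnf, chr17:35205302-35205601 for Lta, chr17:35194257-35194556 for Ltb and chr17:57194132-57194431 for Tnfsf14.
Tnf: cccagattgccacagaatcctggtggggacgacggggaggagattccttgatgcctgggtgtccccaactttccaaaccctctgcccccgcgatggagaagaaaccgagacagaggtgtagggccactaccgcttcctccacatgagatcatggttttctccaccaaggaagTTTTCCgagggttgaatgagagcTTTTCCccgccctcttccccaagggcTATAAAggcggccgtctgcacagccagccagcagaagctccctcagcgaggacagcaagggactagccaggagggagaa
Lta: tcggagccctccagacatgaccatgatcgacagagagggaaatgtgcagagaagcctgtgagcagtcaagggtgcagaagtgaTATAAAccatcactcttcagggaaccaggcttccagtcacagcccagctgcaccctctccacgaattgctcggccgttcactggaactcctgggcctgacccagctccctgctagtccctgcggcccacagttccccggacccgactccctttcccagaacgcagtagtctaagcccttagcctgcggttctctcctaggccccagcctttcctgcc
Ltb: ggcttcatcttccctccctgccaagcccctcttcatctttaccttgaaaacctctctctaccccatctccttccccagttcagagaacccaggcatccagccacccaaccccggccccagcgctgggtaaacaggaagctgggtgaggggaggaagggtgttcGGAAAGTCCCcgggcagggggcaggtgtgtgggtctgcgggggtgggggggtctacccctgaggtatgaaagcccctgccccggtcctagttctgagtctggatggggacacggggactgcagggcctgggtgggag
Tnfsf14: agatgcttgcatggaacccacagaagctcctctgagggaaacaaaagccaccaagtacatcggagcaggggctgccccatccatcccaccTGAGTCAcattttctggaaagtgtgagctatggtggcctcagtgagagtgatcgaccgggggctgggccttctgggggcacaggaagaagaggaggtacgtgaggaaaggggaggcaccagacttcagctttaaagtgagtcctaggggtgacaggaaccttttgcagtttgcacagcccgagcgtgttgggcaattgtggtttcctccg

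In the Tnf window the capitals mark a TATA motif (TATAAA) at positions -29 to -24 from the start and the NFAT core (GGAAAA, here on the opposite strand) at -78 to -73 and at -55 to -50. The Ltb window holds a kappa B motif (on the opposite strand) at -87 to -78, and the Tnfsf14 window an AP-1 motif (TGANTCA) at -160 to -154. Lta has TATAAA at -167 to -162. The interferon response motif and the CRE motif TGACGTCA were also searched on both strands and matched in 0 of the 8 ligands with a window. No 2 matches overlapped. Of 32544 windows of the same length, 1.61% held the kappa B motif, 7.79% AP-1, 23.3% the NFAT core, 13.6% TATAAA, 3.45% the interferon response motif and 1.8% TGACGTCA. These are matches of letters, not measured binding.

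Tnf encodes the cytokine TNF, which acts through TNFR1 and TNFR2. It had 41.6 and 50.8 RPKM in the anti-SIGLEC15 libraries, against 44.4 and 20.4 RPKM in IgG replicates 1 and 2. The groups overlapped: IgG replicate 1 lay between the anti-SIGLEC15 libraries, and IgG replicate 2 was low. Its log2 fold change was 0.59 (SE 0.43, 95% interval -0.52 to 1.70, limma adjusted p = 1). Leaving out IgG replicate 1 gave 1.13, and leaving out IgG replicate 2 gave 0.049. Only for Tnf among the ligands was IgG replicate 1 above IgG replicate 2, by a ratio of 2.18, where the ratios of the other 9 ran from 0.256 to 0.757.

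That order of the IgG libraries is shared with transcripts of several other cell types, among them myeloid cells, another known source of TNF. Of the tested markers, 5 of 5 neutrophil genes and 4 of 6 macrophage and monocyte genes were lowest in IgG replicate 2. So were 3 of 5 hepatocyte and hepatoma genes, 3 of 4 epithelial genes and 15.9% of all tested genes. The highest library was IgG replicate 1 for 5 of 5 neutrophil genes and 4 of 6 macrophage and monocyte genes. For Tnf, as for the macrophage gene Cd68, the highest library was anti-SIGLEC15 replicate 2. The summed level of the 5 neutrophil genes was 213 and 364 RPKM in the anti-SIGLEC15 libraries, against 835 and 66.7 RPKM in the IgG libraries. For the 8 macrophage and monocyte genes it was 52.6 and 79.4 RPKM, against 107 and 39.3 RPKM with IgG. Levels within that list differed. Cd68 had 24.8 and 31.0 RPKM, against 28.1 and 24.5 RPKM with IgG. Cd14 had 22.0 and 39.3 RPKM, against 65.0 and 8.90 RPKM with IgG, whereas Adgre1 did not exceed 0.154 RPKM in any library. The part of these cells in the Tnf result was not tested.

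Lta encodes lymphotoxin alpha, which is secreted as a homotrimer or held at the membrane by lymphotoxin beta. It had 10.6 and 7.79 RPKM in the anti-SIGLEC15 libraries, against 3.74 and 6.67 RPKM in the IgG libraries. Both anti-SIGLEC15 libraries lay above both IgG libraries, and the log2 fold change was 0.74 (SE 0.36, limma adjusted p = 1). Leaving out IgG replicate 1 gave 0.40, leaving out IgG replicate 2 gave 1.09, and T cell scaling gave 0.092, with overlapping groups. Ltb encodes lymphotoxin beta, the membrane anchor of the heterotrimer that binds the lymphotoxin beta receptor. It had 121.2 and 120.96 RPKM in the anti-SIGLEC15 libraries, against 80.1 and 105.8 RPKM in the IgG libraries. The anti-SIGLEC15 pair was almost level and above both IgG libraries, and the log2 fold change was 0.39 (SE 0.27, limma adjusted p = 1). It was 0.19 with IgG replicate 1 left out and 0.59 with IgG replicate 2 left out. With T cell scaling it turned to -0.35 and the groups overlapped, and with upper-quartile scaling they overlapped too. The neighbours did not keep a fixed proportion: the ratio of Tnf to Lta in RPKM was 3.93 and 6.53 in the anti-SIGLEC15 libraries, against 11.9 and 3.06 in the IgG libraries. The ratio of Ltb to Lta was 11.4 and 15.5, against 21.4 and 15.9 with IgG.

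Fasl and Tnfsf10 encode the death ligands FasL and TRAIL. Fasl (chromosome 1, 161780689 to 161788495, minus strand) had 42.4 and 57.7 RPKM in the anti-SIGLEC15 libraries, against 12.6 and 42.2 RPKM in the IgG libraries. IgG replicate 1 was low, and IgG replicate 2 was level with anti-SIGLEC15 replicate 1. The log2 fold change of Fasl was the largest of the family at 1.06 (SE 0.60, 95% interval -0.49 to 2.61, limma adjusted p = 1). Leaving out IgG replicate 1 gave 0.22, whereas leaving out IgG replicate 2 gave 1.89. Tnfsf10 (chromosome 3, 27317028 to 27342427, plus strand) had 5.93 and 5.38 RPKM in the anti-SIGLEC15 libraries, against 1.79 and 6.98 RPKM in the IgG libraries. Its groups overlapped, with the anti-SIGLEC15 pair between the IgG libraries, and its log2 fold change of 0.50 (SE 0.55) was -0.26 without IgG replicate 1. Without IgG replicate 2 it was 1.25.

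Tnfsf14 encodes LIGHT, a costimulatory ligand of the receptors HVEM and lymphotoxin beta receptor. It had 10.8 and 8.02 RPKM in the anti-SIGLEC15 libraries, against 3.48 and 4.96 RPKM in the IgG libraries. The groups did not overlap, and the ratio of the means, 2.23, was the largest among the ligands. Its log2 fold change was 1.00 (SE 0.32, 95% interval 0.20 to 1.80) with an unadjusted p of 0.0227 in limma and an adjusted p of 1. The fold change ran from 0.79 to 1.21 when each library was left out in turn, and was 0.34 after scaling to T cell genes. The highest of these fold changes, 1.21, was that without IgG replicate 2.

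Tnfsf9, Cd70 and Tnfsf8 encode the costimulatory ligands 4-1BB ligand, CD70 and CD30 ligand. Tnfsf9 had 9.33 and 13.5 RPKM in the anti-SIGLEC15 libraries, against 5.03 and 10.2 RPKM in the IgG libraries. The groups overlapped and the log2 fold change was 0.57 (SE 0.41, limma adjusted p = 1). It was 0.12 with IgG replicate 1 left out and 1.02 with IgG replicate 2 left out. The long non-coding gene Gm11110 overlaps Tnfsf9 on the opposite strand over 618 bases, and since no source states that strand was used in counting, reads there cannot be told apart. Gm11110 had 3.65 and 5.33 RPKM in the anti-SIGLEC15 libraries, against 1.42 and 6.58 RPKM in the IgG libraries.

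Cd70 had 7.11 and 16.4 RPKM in the anti-SIGLEC15 libraries, against 6.97 and 12.6 RPKM in the IgG libraries. It split each treatment the same way, with replicate 1 low and replicate 2 high, and its log2 fold change was 0.19 (SE 0.49, limma adjusted p = 1), or -0.36 to 0.74 with each library left out in turn. Tnfsf8 (chromosome 4, 63831308 to 63861347, minus strand) had 1.89 and 1.47 RPKM in the anti-SIGLEC15 libraries, against 0.426 and 1.46 RPKM in the IgG libraries, from 113 and 83 reads with anti-SIGLEC15 against 26 and 86 reads with IgG. IgG replicate 1 was low, and IgG replicate 2 was level with anti-SIGLEC15 replicate 2. The log2 fold change of Tnfsf8 was 0.51 (SE 0.39, limma adjusted p = 1) on the scale of RPKM + 1, which understates changes of low genes, and 1.08 on the recovered reads with limma-voom. It was 0.12 with IgG replicate 1 left out and 0.91 with IgG replicate 2 left out. Of the markers of antigen-presenting cells, the 5 B cell genes summed to 1.85 and 1.03 RPKM in the anti-SIGLEC15 libraries, against 0.369 and 1.61 RPKM in the IgG libraries, with the B cell gene Ms4a1 at 0 in IgG replicate 1. The 5 dendritic cell genes summed to 14.4 and 7.28 RPKM, against 2.61 and 5.90 RPKM with IgG. Most of the dendritic cell sum in anti-SIGLEC15 replicate 1 was Itgax, an integrin gene, at 12.2 and 4.05 RPKM in the anti-SIGLEC15 libraries against 1.55 and 3.14 RPKM in the IgG libraries. The plasmacytoid dendritic cell gene Siglech was at 0 in anti-SIGLEC15 replicate 2 and IgG replicate 2. Their part in the Tnfsf9 and Cd70 levels was not tested.

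Tnfsf11 encodes RANKL, the ligand of RANK that drives osteoclast formation and acts on dendritic cells. Its transcript (chromosome 14, 78277445 to 78308043, minus strand) had 5.07 and 10.4 RPKM in the anti-SIGLEC15 libraries, against 3.57 and 13.2 RPKM in the IgG libraries. The IgG libraries enclosed both anti-SIGLEC15 libraries. The mean was 7.73 RPKM with anti-SIGLEC15 against 8.39 RPKM with IgG, a ratio of 0.921, so the direction depended on the measure. The log2 fold change was 0.045 (SE 0.65, 95% interval -1.63 to 1.72, limma adjusted p = 1) and ran from -0.77 without IgG replicate 1 to 0.86 without IgG replicate 2.

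**Figure D2:**
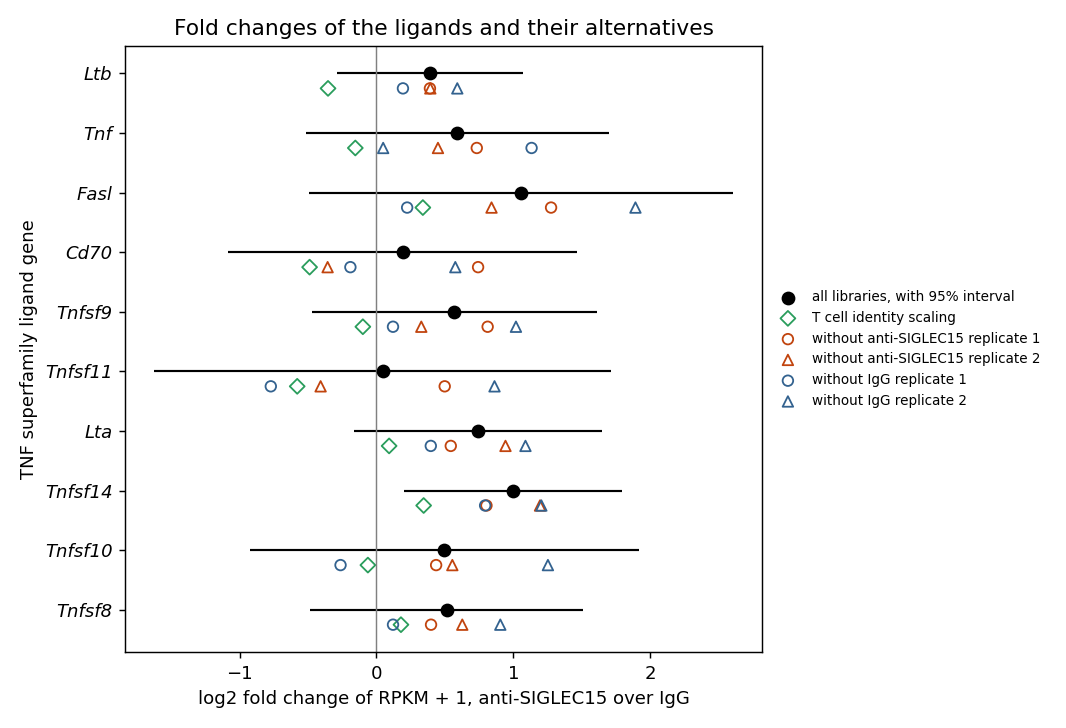
Log2 fold change of RPKM + 1, anti-SIGLEC15 over IgG, for each ligand (black point, with the 95% interval of limma). Open symbols give the value without each library in turn and after scaling to T cell identity genes. The black points all lie above 0, but only the interval of Tnfsf14 leaves out 0, and the green diamonds (T cell scaling) lie on both sides of it.

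When libraries were scaled to equal T cell identity levels, the ligands no longer lay on the same side. The median log2 fold change of the 10 was -0.081 on this scale, where the median of all 12049 tested genes moved to -0.62. All genes of a library are divided by the same factor. The place of the ligands above the median gene is therefore largely carried over, and is not a second result. Of the 10, 4 had a fold change above 0, beside 7.15% of all tested genes. So did 10 of the 18 T cell identity genes, which set this scale. The 4 ligands were Tnfsf14 and Fasl at 0.34 each, Tnfsf8 at 0.18 and Lta at 0.092. The 6 other ligands lay between -0.58 for Tnfsf11 and -0.063 for Tnfsf10. Both anti-SIGLEC15 libraries lay above both IgG libraries for Fasl and Tnfsf8. That position was held by 2.28% of tested genes and by 5 of the 18 T cell identity genes, so it was not particular to the ligands. The margins were narrow: scaled Fasl was 33.7 RPKM in anti-SIGLEC15 replicate 1 against 31.4 RPKM in IgG replicate 2. Scaled Tnfsf8 was 1.096 RPKM in anti-SIGLEC15 replicate 2 against 1.083 RPKM in IgG replicate 2. For these pairs the Poisson intervals already overlapped before scaling. Tnfsf11 lay below in both, as did 16.3% of tested genes and 8 of the 18 T cell identity genes. None of the ligands was called on this scale, and their limma adjusted p lay between 0.81 and 0.963.

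Per unit of T cell transcript, Tnf stood apart in IgG replicate 1. Scaled Tnf was 33.1 and 37.97 RPKM in the anti-SIGLEC15 libraries, against 101 and 15.18 RPKM in IgG replicates 1 and 2, a ratio of 6.63 between the IgG libraries. Scaled Ltb was also highest in IgG replicate 1, at 181 RPKM, against 78.6 RPKM in IgG replicate 2, with 96.3 and 90.3 RPKM in the anti-SIGLEC15 libraries. IgG replicate 1 was the highest scaled library for 5 of the 10 ligands, Tnf, Lta, Ltb, Tnfsf9 and Cd70, and for 90.2% of all tested genes. Fasl, Tnfsf10, Tnfsf8 and Tnfsf11 had scaled ratios of IgG replicate 1 to replicate 2 at 0.909, 0.781, 0.891 and 0.824.

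**Figure D3:**
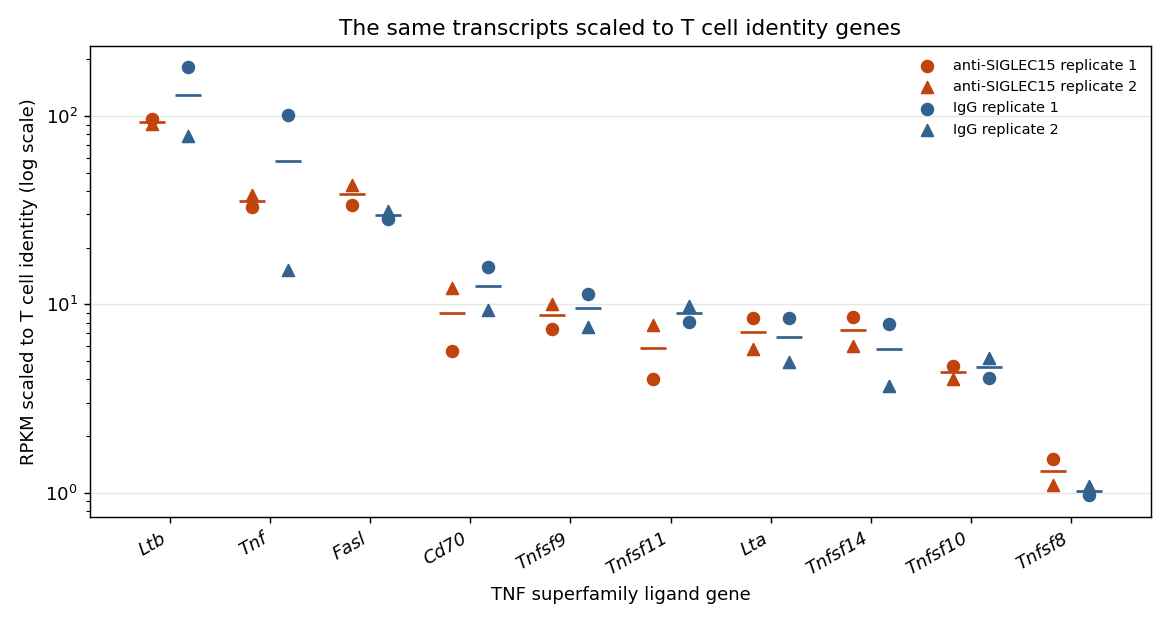
Level of each ligand after each library was divided by its T cell identity factor (RPKM, log axis), in the same gene order and symbols, with bars at the means of 2 libraries. Fasl, Tnfsf10, Tnfsf8 and Tnfsf9 draw together across the 4 libraries. Tnf in IgG replicate 1 lies above its other 3 values, as do Lta, Ltb, Tnfsf9 and Cd70 there.

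The receptors of these ligands fell into different orders over the libraries. Of 13 receptor genes, 10 were tested, 0 were called, and 1, Tnfrsf8 (the CD30 receptor of the ligand encoded by Tnfsf8), lay higher in both anti-SIGLEC15 libraries, with 1.49 and 1.91 RPKM against 0.289 and 1.12 RPKM with IgG. Of all tested genes, 12.1% did so, and 1 of 10 is near that share. The median log2 fold change of the tested receptors was 0.14. IgG replicate 1 was the lowest library for 6 of the 10, namely Tnfrsf1b (TNFR2), Tnfrsf14 (HVEM), Fas, Tnfrsf8, Tnfrsf9 (4-1BB) and Cd27, where 43.4% of all tested genes had their lowest value. It was the highest for the other 4, Tnfrsf1a (TNFR1), Ltbr (the lymphotoxin beta receptor), Tnfrsf10b (the death receptor for TRAIL) and Tnfrsf22 (a mouse decoy receptor for TRAIL), as for 34% of all tested genes.

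The pairing of TNF with its receptors shows both orders. Tnfrsf1b had 84.8 and 198 RPKM in the anti-SIGLEC15 libraries, against 53.0 and 131 RPKM in the IgG libraries. Tnfrsf1a had 20.8 and 14.7 RPKM, against 48.4 and 13.7 RPKM with IgG, and Ltbr 14.8 and 7.49 RPKM, against 35.8 and 6.71 RPKM with IgG. In IgG replicate 1, where T cell genes were low, Tnfrsf1b was thus at its lowest and Tnfrsf1a and Ltbr at their highest. Tnfrsf1b did not follow T cell genes throughout. It also differed between the anti-SIGLEC15 libraries, whose T cell identity levels were 67.3 and 71.6 RPKM. The epithelial keratin gene Krt8 shared the order of Tnfrsf1a and Ltbr, with 241 and 165 RPKM in the anti-SIGLEC15 libraries against 649 and 121 RPKM in the IgG libraries. The epithelial gene Cdh1 did not, with 0.933 and 1.84 RPKM, against 0.368 and 1.54 RPKM with IgG. Of the tested markers, IgG replicate 1 was highest for 3 of 4 epithelial and 4 of 5 hepatocyte and hepatoma genes. So it was for 5 of 5 neutrophil and 4 of 6 macrophage and monocyte genes, and for 34% of all tested genes. The part of any of these cells in the Tnfrsf1a and Ltbr levels was not tested.

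The receptors of 4-1BB ligand and CD70 had higher levels per length than their ligands in every library. Tnfrsf9, the receptor of 4-1BB ligand, had 81.0 and 118 RPKM in the anti-SIGLEC15 libraries, against 67.3 and 136 RPKM in the IgG libraries. Cd27, the receptor of CD70, had 57.9 and 63.96 RPKM, against 22.8 and 67.7 RPKM with IgG. Fas had 9.15 and 10.5 RPKM, against 5.11 and 11.8 RPKM with IgG. In each of these 3 the IgG libraries enclosed the anti-SIGLEC15 pair. The receptors of RANKL did not pass the filter on low values. Tnfrsf11a (RANK) did not exceed 0.128 RPKM. The decoy receptor Tnfrsf11b had 0.43 and 0.334 RPKM in the anti-SIGLEC15 libraries, against 1.57 and 0.229 RPKM in the IgG libraries.

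**Figure D4:**
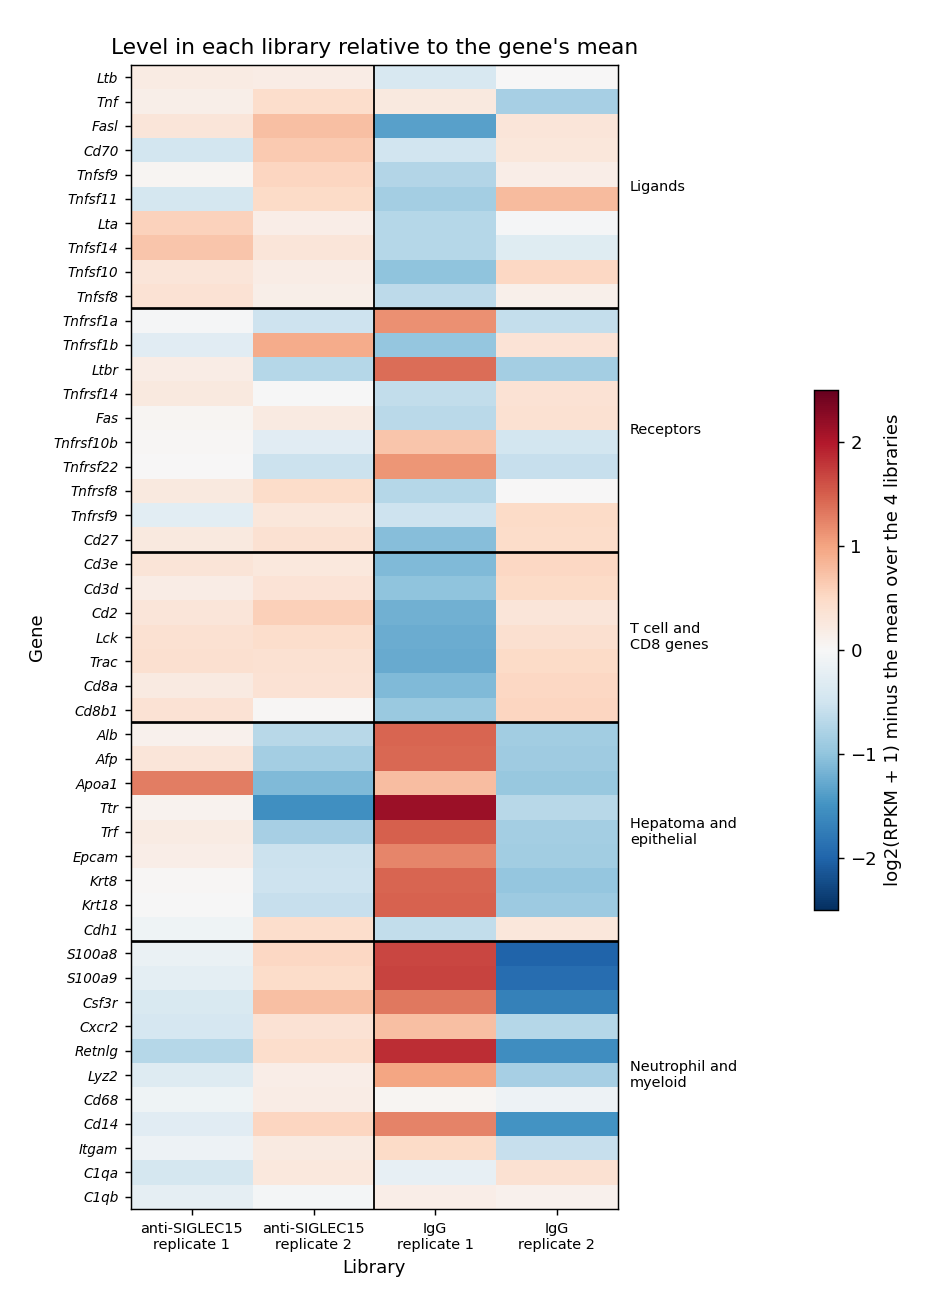
Deviation of log2(RPKM + 1) from the mean of each gene over the 4 libraries (colour), for the ligands, their tested receptors, T cell and CD8 genes, hepatoma and epithelial markers, and neutrophil and myeloid markers. In IgG replicate 1 the ligands other than Tnf are blue like the T cell genes. Tnfrsf1a, Ltbr, Tnfrsf10b and Tnfrsf22 are red there like most hepatoma, epithelial, neutrophil and myeloid markers.

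Other genes of the pathway were not called either. Of 8 further ligands of the superfamily, 3 were tested, and of these 3, 0 were called and 0 lay apart between the treatments. Among the 5 below the filter, Cd40lg, which encodes CD40 ligand, had 1.48 and 0.862 RPKM in the anti-SIGLEC15 libraries, against 0.349 and 0.619 RPKM in the IgG libraries, and the other 4 did not exceed 0.534 RPKM. The most abundant of the 8 was Tnfsf4, which encodes OX40 ligand, with 10.5 and 20.7 RPKM in the anti-SIGLEC15 libraries against 12.7 and 30.1 RPKM in the IgG libraries. Of 12 adaptor and death signalling genes, all 12 were tested, 3 lay higher in both anti-SIGLEC15 libraries (the adaptors Traf2 and Traf3 and the initiator caspase gene Casp8) and 0 lower, where 12.1% and 6.02% of all tested genes did, and the median log2 fold change was 0.22. Of 8 NF-kB genes, 3 lay higher (Rela, Relb and Tnfaip3) and 0 lower, beside the same shares of all tested genes, with a median of 0.37. With T cell scaling 0 of the 12 adaptor genes and 0 of the 8 NF-kB genes lay higher, where 2.28% of all tested genes did. On this scale 2 of the 12 and 1 of the 8 lay lower, where 16.3% of all tested genes did. The medians were -0.39 and -0.35, beside -0.62 over all tested genes. Tnfaip3, which encodes the NF-kB inhibitor A20, had 215 and 208 RPKM in the anti-SIGLEC15 libraries, against 71.2 and 204 RPKM in the IgG libraries, so that IgG replicate 1 alone stood apart. Of 8 genes for the control of ligand mRNA and shedding, 0 lay apart in either direction. Zfp36, whose product tristetraprolin speeds the decay of Tnf mRNA, had 327 and 233 RPKM in the anti-SIGLEC15 libraries, against 803 and 185 RPKM in the IgG libraries, and was highest in IgG replicate 1.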

How the data were processed

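Per the labels' protocols, RNA of enriched CD8+ T cells was captured on oligo-coated beads and read on the DNBSEQ-G50 platform. The deposited values were read as RPKM, computed by the authors, because value times exon length in GENCODE M21 was a whole multiple of 1 step per library for 98.92% to 98.97% of genes with under 1000 reads (tolerance 0.02). The builds GRCm38 and mm10 are named in the submitters' processing notes; which aligner, counter and annotation were used is not given in the sources used here. RPKM here divides by all annotated exons of a gene, which understates genes expressed as short isoforms.

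Sample titles gave the treatment of all 4 libraries. limma 3.58.1 (R 4.3.3), with trend and robust shrinkage, was run two-sided on log2(RPKM + 1). A gene entered if 2 or more libraries reached 1 RPKM, which left 12484, with Benjamini-Hochberg adjustment at 0.05. This was the form planned for normalized values. Fold changes on this scale understate low genes. Intervals around reads are exact Poisson. For T cell scaling, each library was divided by the geometric mean of 18 T cell genes. Alternatives were other scalings, filters and pseudocount, limma-voom on recovered reads, a block for replicate number, and leaving out single libraries, where the spread of the remaining pair stands for the lone library too. The count of ligands lying apart was recomputed under scalings and left-out libraries, chosen after seeing the data. The fits were tested on simulated reads. There all libraries shared the same mean levels apart from the planted changes, so differences in cell make-up between libraries were not covered. The named genes were all 10 ligands and fixed lists; members and lists were chosen with earlier results of these data known. Python 3.11.15, pandas 2.3.3, scipy 1.17.1 and matplotlib 3.10.9 were used.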

Additional observations from a re-analysis of the deposited data

How the results depend on the processing

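The count of 0 called ligands held under the other scalings, filters, the pseudocount of 0.1, limma-voom and the replicate block, and without either anti-SIGLEC15 library. It ranged from 0 to 5 when each library was left out, with 1 call (Tnf) without IgG replicate 1 and 5 (Lta, Fasl, Tnfsf10, Tnfsf14 and Tnfsf9) without IgG replicate 2. Over all genes the count of calls was 0, and ranged from 0 to 2251 without single libraries (135 without IgG replicate 1); it was 3 with T cell scaling. At an unadjusted p under 0.05 there were 146 genes, and limma-voom called 0 with 90. Leaving out an IgG library leaves only the anti-SIGLEC15 pair to estimate the spread; log2 values correlated at 0.972 within that pair and at 0.884 within the IgG pair. The median log2 fold change of the ligands was 0.54, turned to -0.081 with T cell scaling, and ranged from 0.16 to 0.96 without single libraries. The count of 5 ligands lying above in both anti-SIGLEC15 libraries was 2 with T cell scaling (Fasl and Tnfsf8). With upper-quartile scaling it was 3 (Lta, Tnfsf14 and Tnfsf8), and with median-of-ratios scaling 4 (Lta, Ltb, Tnfsf14 and Tnfsf8). The count ranged from 5 to 9 without single libraries. Single ligands turned with T cell scaling: Tnf -0.15, Ltb -0.35, Tnfsf10 -0.063, Tnfsf11 -0.58, Tnfsf9 -0.10 and Cd70 -0.49. They also turned without IgG replicate 1 for Tnfsf10 (-0.26), Tnfsf11 (-0.77) and Cd70 (-0.19), and without anti-SIGLEC15 replicate 2 for Tnfsf11 (-0.41) and Cd70 (-0.36). Over all left-out libraries the ranges were -0.26 to 1.25 for Tnfsf10, -0.77 to 0.86 for Tnfsf11 and -0.36 to 0.74 for Cd70. The cause was not tested beyond these fits. Tnfsf8 had no value with the filter at 5 RPKM. With the replicate block 0 ligands and 0 genes were called, with 303 genes at an unadjusted p under 0.05 and a median of 0.54 for the ligands. The deviations of same-numbered libraries correlated at 0.33 over 12484 genes, but with 2 numbers this does not show that they pair the samples.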
